A study of Homo sapiens with 6 samples.

Results

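Integrins and the proteins that couple them to the actin cytoskeleton were followed in 2 Ewing sarcoma cell lines. The set held 36 genes chosen by symbol: 17 integrin alpha subunits, 8 beta subunits, the 3 kindlins (FERMT1, FERMT2 and FERMT3), the 2 talins (TLN1 and TLN2) and 6 adaptors (VCL, ILK, PXN, PTK2, ZYX and PARVA). Of these, 35 were measured by a probe set of their own, out of 18417 named genes in the table. The remaining gene, ITGA1, was not analysed here, since its probe set also carries the symbol PELO. Both cell lines, named A673 and SK-N-MC, are established and carry the EWSR1-FLI1 fusion. Each was transfected with a control siRNA, meant to silence no gene, or with an siRNA against DKK2 or ITM2A. DKK2 is a secreted modulator of Wnt signalling, and ITM2A is a membrane protein used in the design as an independent knock-down. The control arrays therefore also come from transfected cells. There were 6 arrays, 1 for each line and siRNA. The labels number the DKK2 siRNA 1 in both lines. The ITM2A siRNA is numbered 7 for A673 but 1 for SK-N-MC, and the labels do not say if it was the same oligonucleotide.

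Integrins are pairs of 1 alpha and 1 beta subunit that span the membrane and bind the extracellular matrix or other cells. Talins and kindlins bind the tail of the beta subunit from inside the cell and together switch the receptor to its high-affinity form. Vinculin, paxillin, zyxin, parvin, the pseudokinase ILK and focal adhesion kinase then assemble at the bound receptor, link it to actin and pass signals on. Ewing sarcoma cells are often described as weakly adherent, and the fusion is known to repress adhesion genes.

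All values below are log2 values per probe set as deposited, and a difference of 1 is 2-fold. Values of different genes come from different probe sets, so their order need not be the order of their RNA amounts. The arrays had medians of 3.35 to 3.44, and arrays of 1 line correlated at 0.986 to 0.991 across probe sets, against 0.959 to 0.965 between lines. DKK2 stood at 8.64 with control siRNA and 7.73 with its own siRNA in A673, and at 8.01 and 6.50 in SK-N-MC. ITM2A stood at 8.52 and 5.03 in A673 with control and ITM2A siRNA, and at 9.48 and 6.10 in SK-N-MC. Of 8 Ewing sarcoma markers 7 were measured, with a mean of 6.86 to 6.97 over the A673 arrays and 7.17 to 7.27 over the SK-N-MC arrays. Single markers were uneven. The surface marker CD99 stood highest, at 9.79 to 10.73 over all arrays. CCK stood lowest, at 3.14 to 3.60 in A673 and 4.84 to 5.13 in SK-N-MC. On average CD99 and LIPI were higher in A673 (0.84 and 0.83), while NKX2-2, STEAP1, PRKCB, CCK and PAPPA were lower (-0.31 to -1.58). The 7 measured leukocyte markers had means of 2.66 to 2.77 in A673 and 2.69 to 2.77 in SK-N-MC, and the 5 endothelial and 4 platelet markers had means of 2.45 to 2.73 on every array. The epithelial genes EPCAM and CDH1 stood at 2.11 to 2.57, while the keratin gene KRT18 stood at 9.09 to 9.76. No scanner files were used here, so detection above background could not be judged. By their mean over all arrays, 13 of the 35 genes lay at or above the median level of all genes, 4.04, and 22 lay below it. Differences of such dim probe sets are compressed.

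**Figure D1:**
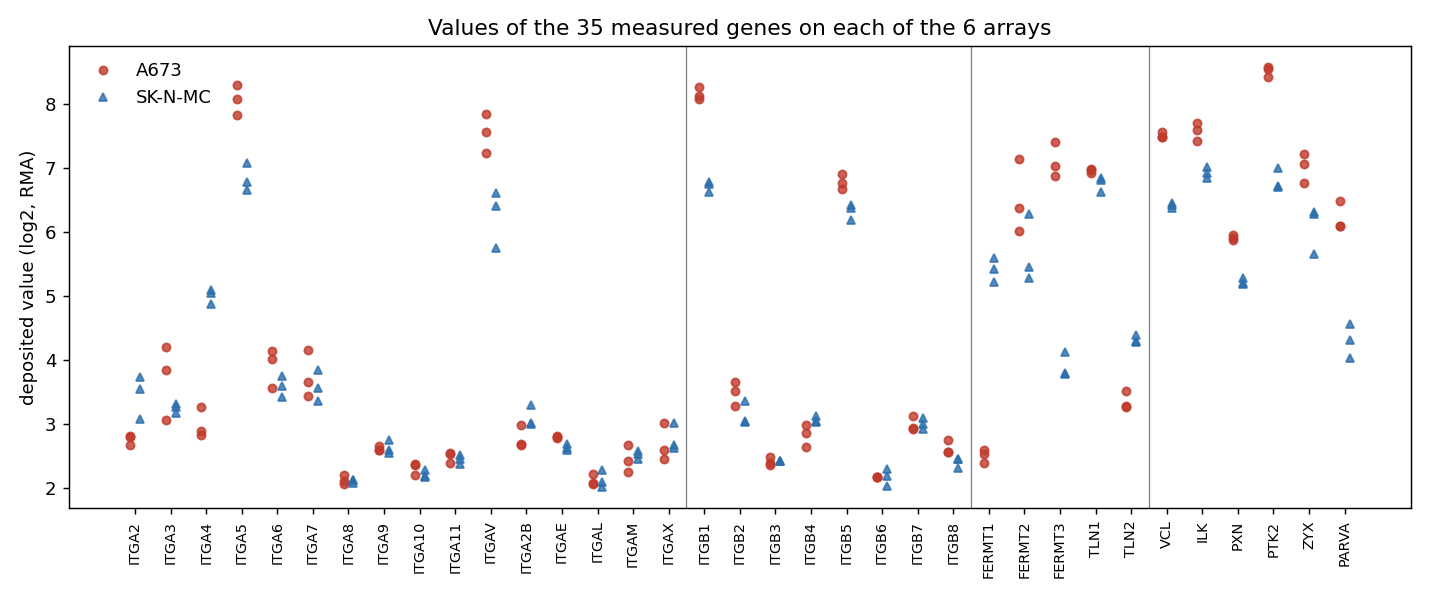
Deposited log2 values (vertical axis) of the 35 measured genes (horizontal axis, ordered as alpha subunits, beta subunits, kindlins and talins, adaptors), 1 point per array. ITGA5, ITGAV, ITGB1, FERMT3, VCL, PTK2 and PARVA are higher on every A673 array than on any SK-N-MC array, whereas ITGA4 and FERMT1 are lower.

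The main difference in these genes lay between the lines. In A673 compared with SK-N-MC, 12 of the 35 genes were higher and 5 lower at an adjusted p under 0.05 (limma over all 6 arrays with siRNA as a block, Benjamini-Hochberg over all genes). That is 34.3% higher and 14.3% lower, where 13.8% of all genes were higher and 14.7% lower. In either direction 17 of 35 passed, or 48.6%, beside 28.5% of all genes. The median difference was 0.16 over the 35 genes and -0.02 over all genes. At least 2-fold differences in the same direction with all 3 siRNAs were seen for 7 genes higher in A673 (3.25% of all genes) and for 2 lower (1.97%). For 14 genes every A673 array lay above every SK-N-MC array (18.1% of all genes), and for 6 every A673 array lay below (20.8%). The 12 higher genes all belonged to the 13 at or above the median level, TLN1 being the other. Among the 9209 genes at that level, tested alone, 22.9% were higher and 25.6% lower. Interferon-induced genes differed between the lines too, 12 of 14 measured being higher in A673 and none lower, and their part in the differences below was not tested. In such bulk RNA, fewer cells of a kind and less RNA per cell cannot be told apart. The 3 arrays of a line received different siRNAs, and nothing in the labels says that they came from separate cultures. The p-values thus measure the spread between these arrays, which may be technical, and each line stands for itself.

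**Figure D2:**
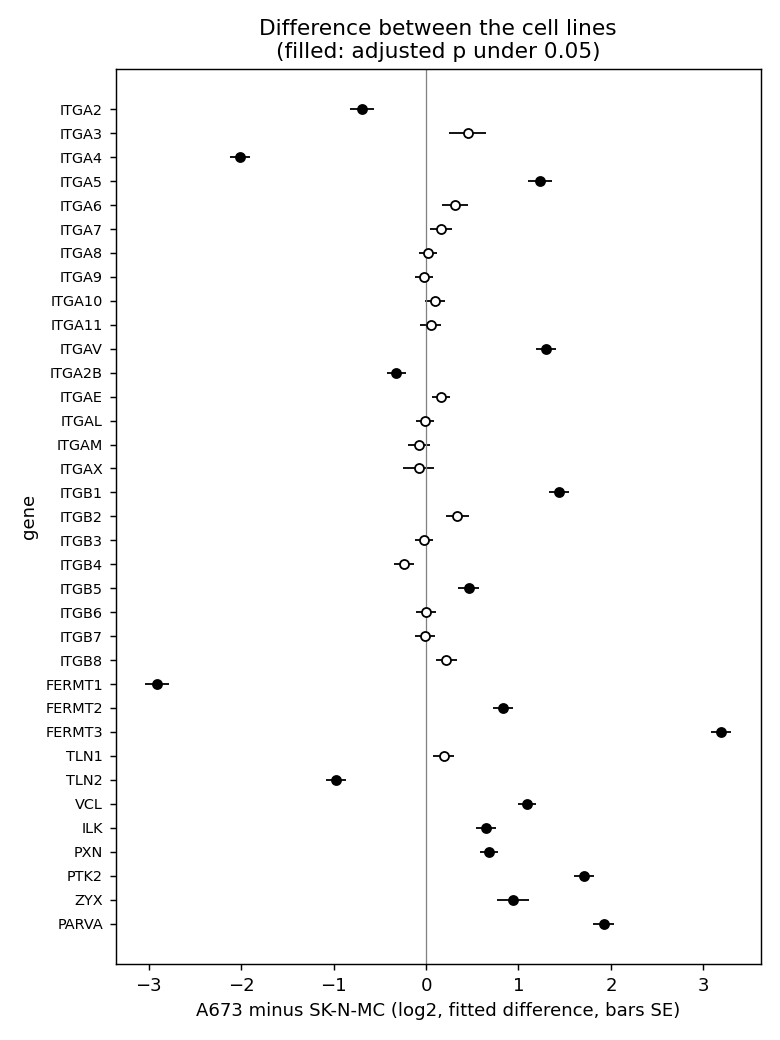
Fitted difference between A673 and SK-N-MC (horizontal axis, log2) for each of the 35 genes (vertical axis), with bars for the SE and filled points for an adjusted p under 0.05. FERMT3 (3.19) and FERMT1 (-2.91) lie at opposite ends, and the points of all 6 adaptors are filled and to the right of 0.

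To show what lies in front of these genes, the 250 bases before the RefSeq transcription start (build GRCh38.p14, 5′ to 3′ on the gene's strand) are given for 3 integrin subunits that were higher in A673 and for the 2 kindlins with a promoter in the table used. Of the 36 genes, 25 matched a promoter there. Capitals mark GC boxes (GGGCGG, the letters bound by SP1-type factors), searched on both strands with overlapping matches counted.

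ITGAV, chr2:186589806-186590055, plus strand: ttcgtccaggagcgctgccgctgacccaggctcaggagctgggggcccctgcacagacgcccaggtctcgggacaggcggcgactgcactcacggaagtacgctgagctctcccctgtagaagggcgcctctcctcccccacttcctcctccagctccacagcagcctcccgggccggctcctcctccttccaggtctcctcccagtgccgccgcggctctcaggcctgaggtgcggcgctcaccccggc
ITGA5, chr12:54419267-54419516, minus strand: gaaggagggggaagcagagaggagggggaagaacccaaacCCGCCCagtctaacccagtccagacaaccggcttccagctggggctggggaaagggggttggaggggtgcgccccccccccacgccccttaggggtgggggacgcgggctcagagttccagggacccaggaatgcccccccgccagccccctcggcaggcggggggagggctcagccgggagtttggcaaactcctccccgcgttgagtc
ITGB1, chr10:32958231-32958480, minus strand: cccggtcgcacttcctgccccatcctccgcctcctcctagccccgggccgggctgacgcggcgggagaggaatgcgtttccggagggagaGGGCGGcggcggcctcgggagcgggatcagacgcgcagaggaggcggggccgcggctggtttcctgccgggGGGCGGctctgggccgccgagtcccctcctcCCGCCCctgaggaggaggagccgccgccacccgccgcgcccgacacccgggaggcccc
FERMT2, chr14:52951051-52951300, minus strand: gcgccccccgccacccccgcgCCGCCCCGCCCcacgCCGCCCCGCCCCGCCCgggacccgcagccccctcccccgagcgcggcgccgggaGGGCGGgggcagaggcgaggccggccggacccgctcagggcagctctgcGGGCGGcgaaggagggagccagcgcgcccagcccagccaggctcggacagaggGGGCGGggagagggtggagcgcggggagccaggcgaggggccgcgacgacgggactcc
FERMT3, chr11:64206471-64206720, plus strand: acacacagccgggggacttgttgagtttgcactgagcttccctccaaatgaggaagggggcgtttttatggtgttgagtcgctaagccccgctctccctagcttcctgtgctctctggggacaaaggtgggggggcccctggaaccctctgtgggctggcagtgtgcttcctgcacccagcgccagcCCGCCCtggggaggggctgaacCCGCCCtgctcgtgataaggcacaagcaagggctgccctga

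The stretch of FERMT2 held 8 GC boxes, ITGB1 3, FERMT3 2, ITGA5 1 and ITGAV none. Among 27326 promoters of the same length 42.3% held at least 1 GC box, and 14 of the 25 matched genes did. The ETS repeat GGAAGGAA was in 2.99% of all promoters and in 1 of the 25 (ITGA10), the TATA box TATAAA in 11.1% and in ITGA6, and the CArG box, the target of SRF, in 1.14% and in ITGB6. None of these 3 motifs lay in the stretches printed above. The median GC content was 70.4% over the 25 and 58% over all promoters, and FERMT2 was richest among those printed, at 84.4%, with FERMT3 lowest, at 62.8%. A match describes letters only, and these windows are short.

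Among the 16 measured alpha subunits, 2 were higher in A673 and 3 lower. Values are given for control, DKK2 and ITM2A siRNA in that order. ITGA5, which pairs with ITGB1 as the fibronectin receptor, stood at 8.08, 7.83 and 8.29 in A673 and at 7.08, 6.66 and 6.79 in SK-N-MC. It was 2.34-fold higher in A673 (1.23 ± 0.13 log2, SE, n = 3 arrays per line; limma adjusted p = 0.000150). ITGAV, the alpha subunit of the vitronectin receptors and a binder of RGD motifs, stood at 7.85, 7.24 and 7.57 in A673 and at 6.61, 5.75 and 6.40 in SK-N-MC. Its difference was 1.30 ± 0.11, or 2.46-fold (adjusted p = 5.92e-05). For both genes the lowest A673 array lay above the highest SK-N-MC array. ITGA4, which binds VCAM1 and fibronectin, ran the other way, at 3.27, 2.83 and 2.89 in A673 and 5.10, 4.87 and 5.05 in SK-N-MC. It was 4.04-fold lower in A673 (-2.01 ± 0.11, adjusted p = 5.47e-06), the largest difference among the 16 measured alpha subunits.

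The collagen receptor subunit ITGA2 was lower in A673, at 2.67 to 2.81 against 3.08 to 3.73 (-0.69 ± 0.13, adjusted p = 0.00363), and both ranges lie under the median level. The platelet subunit ITGA2B differed by -0.32 ± 0.10 (limma adjusted p = 0.0476). ITGA2B kept the call under only 1 of its 11 alternatives. It lost the call when any 1 array was left out, at adjusted p = 0.126 to 0.167. Among the laminin-binding subunits, ITGA3 stood at 4.21, 3.06 and 3.85 in A673 and 3.17, 3.26 and 3.32 in SK-N-MC, so that the groups overlapped through the A673 array with DKK2 siRNA. Its line difference of 0.45 ± 0.20 did not pass (adjusted p = 0.147), and it became 0.78 with a call when either DKK2 siRNA array was left out (adjusted p = 0.00840). The values of ITGA6 were 0.31 ± 0.14 (adjusted p = 0.131) in all and 0.49 without either DKK2 siRNA array (adjusted p = 0.0369). ITGA7 differed by 0.16 ± 0.12 (adjusted p = 0.425). The other collagen receptor subunits ITGA10 and ITGA11, the nephronectin receptor subunit ITGA8, and ITGA9 stayed between 2.06 and 2.75 on all arrays, with line differences of -0.02 to 0.10. The leukocyte subunits ITGAL, ITGAM, ITGAX and ITGAE stood at 2.02 to 3.01, and none of the 4 differed past the threshold.

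Of the 8 beta subunits, 2 passed, both higher in A673. ITGB1, the most widely shared beta chain, stood at 8.13, 8.08 and 8.27 in A673 and 6.79, 6.62 and 6.75 in SK-N-MC. The groups lay far apart beside a range of 0.19 within A673 and 0.16 within SK-N-MC, and the difference was 2.71-fold (1.44 ± 0.11, adjusted p = 2.33e-05). ITGB5, which pairs with ITGAV, stood at 6.68, 6.77 and 6.91 against 6.19, 6.42 and 6.38. Its difference was smaller, 0.46 ± 0.11 (adjusted p = 0.0112), and it fell short without either ITM2A siRNA array (0.42, adjusted p = 0.0788). The ITGAV partners ITGB3, ITGB6 and ITGB8 stood at 2.04 to 2.75, and their 3 line differences of -0.02, 0.00 and 0.22, in that order, did not pass. ITGB4, the laminin receptor chain of hemidesmosomes, differed by -0.24 ± 0.11 (adjusted p = 0.149). The leukocyte chains ITGB2 and ITGB7 differed by 0.34 ± 0.12 (adjusted p = 0.0764) and -0.01 ± 0.11 (adjusted p = 0.982). Thus the subunits of the fibronectin receptor (ITGA5 and ITGB1) and those of 1 vitronectin receptor (ITGAV and ITGB5) were all higher in A673.

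The kindlins showed the widest contrast, since FERMT1 and FERMT3 differed in opposite directions. FERMT3, known from blood cells and platelets, stood at 7.03, 6.87 and 7.41 in A673 and at 3.80, 3.79 and 4.13 in SK-N-MC. It was 9.15-fold higher in A673 (3.19 ± 0.11, adjusted p = 3.57e-07) and had the 49th smallest p-value among the 18417 genes. FERMT1, known from epithelia, stood at 2.53, 2.59 and 2.40 in A673 and at 5.22, 5.42 and 5.60 in SK-N-MC. It was 7.50-fold lower in A673 (-2.91 ± 0.13, adjusted p = 1.41e-06). FERMT2, the kindlin of most adherent cells, was higher in A673 by 0.83 ± 0.11 (adjusted p = 0.000473). Its groups overlapped, because ITM2A siRNA brought SK-N-MC to 6.29 while A673 with DKK2 siRNA stood at 6.02. Without siRNA as a block FERMT2 lost the call (adjusted p = 0.0840). For the cell types in which FERMT3 is best known, 7 leukocyte and 4 platelet markers were measured. Of the leukocyte markers, PTPRC stood lowest, at 1.90 to 2.09 on all arrays, and SPI1 highest, at 3.84 to 4.47. Of the platelet markers, PF4 and PPBP stood at 2.09 to 2.56, GP1BA at 2.44 to 2.84 and GP9 at 2.87 to 3.36. The epithelial markers were mixed on all arrays, with EPCAM at 2.11 to 2.44 and CDH1 at 2.34 to 2.57, but KRT8 at 4.71 to 5.86 and KRT18 at 9.09 to 9.76. None of these 4 epithelial markers differed between the lines past the threshold (limma adjusted p = 0.105 to 0.911), and their part in the FERMT1 value was not tested.

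**Figure D3:**
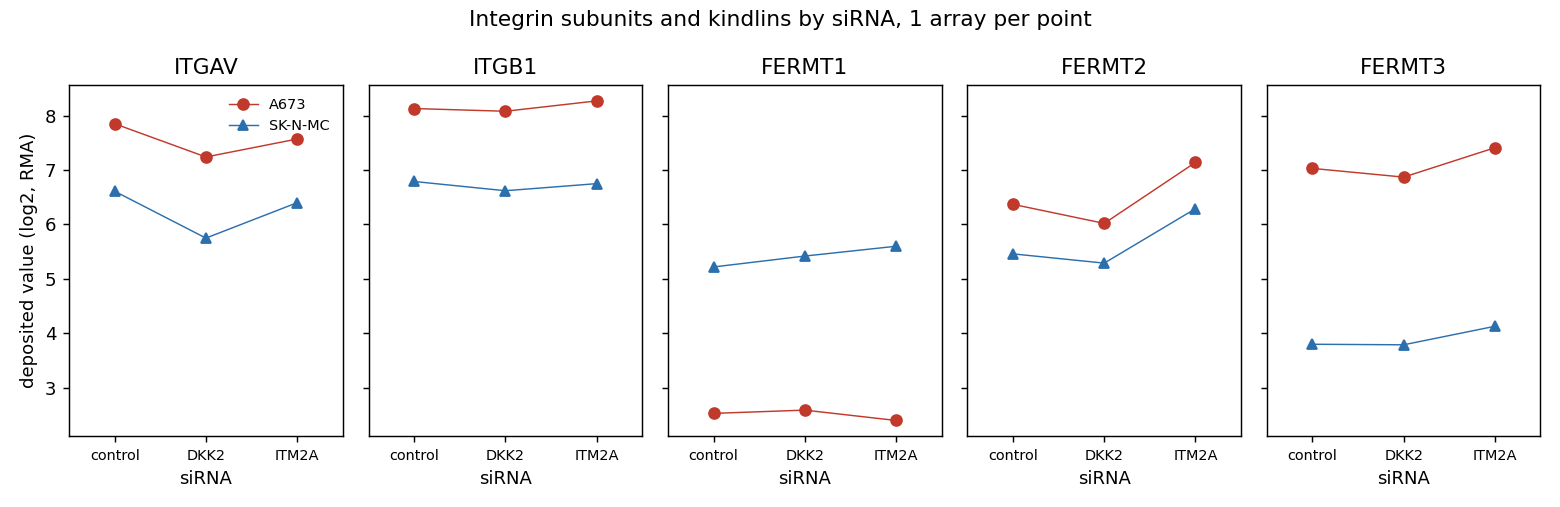
Deposited log2 values (vertical axis) of ITGAV, ITGB1 and the 3 kindlins with each siRNA (horizontal axis), 1 array per point; the lines join arrays of 1 cell line and stand for no order. FERMT2 is highest with ITM2A siRNA in both lines (7.14 and 6.29), ITGAV is lowest with DKK2 siRNA (7.24 and 5.75), and FERMT1 and FERMT3 separate the lines in opposite directions.

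Of the talins, 1 passed. TLN1, the widely expressed talin, stood at 6.93, 6.97 and 6.98 in A673 and 6.85, 6.82 and 6.63 in SK-N-MC. Every A673 array lay above every SK-N-MC array, but the difference of 0.19 ± 0.11 did not pass (adjusted p = 0.268, 95% interval -0.06 to 0.44). TLN2, its paralogue, was lower in A673, at 3.26, 3.51 and 3.28 against 4.29, 4.39 and 4.30 (-0.97 ± 0.11, adjusted p = 0.000205).

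All 6 adaptors were higher in A673. PARVA, which ties ILK to actin, stood at 6.09, 6.48 and 6.10 in A673 and 4.32, 4.57 and 4.03 in SK-N-MC, a 3.78-fold difference (1.92 ± 0.11, adjusted p = 6.48e-06). PTK2, which encodes focal adhesion kinase, stood at 8.58, 8.43 and 8.55 against 7.0, 6.72 and 6.71, a 3.28-fold difference (1.71 ± 0.11, adjusted p = 1.03e-05). VCL, which encodes vinculin, the link from talin to actin, stood at 7.56, 7.49 and 7.49 against 6.38, 6.43 and 6.45. Its range within either line was 0.07, and the difference of 1.09 ± 0.10 (2.13-fold, adjusted p = 0.000107) was many times that spread. ZYX, a zyxin family member found on stressed actin fibres, was higher by 0.94 ± 0.17 (adjusted p = 0.00321), with pairwise differences of 1.41, 0.46 and 0.94. The scaffold gene PXN and the pseudokinase gene ILK differed less, by 0.68 ± 0.10 and 0.65 ± 0.11 (adjusted p = 0.00132 and 0.00234). The second, dimmer probe set of PXN showed no such difference (2.97 in A673 and 3.00 in SK-N-MC on average). For 14 of the 17 called genes, all except ITGA2B, ITGB5 and FERMT2, the call held under each alternative in which the gene was tested. The difference of PXN ranged from 0.33 to 0.72 over these alternatives.

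With DKK2 siRNA, none of the 35 genes passed the threshold against control siRNA (limma with the cell line as a block), where 0.0109% of all genes, 2 in number, passed. The target DKK2 itself did not pass (-1.21 ± 0.17, limma adjusted p = 0.209). A missing call thus does not show an unchanged level. At an unadjusted p under 0.05 there were 4 of the 35 (11.4%, against 8.68% of all genes): ITGAV, ITGA4, ITGA2B and PARVA. The median difference was -0.03 (-0.02 over all genes), with 37.1% lower in both lines and 28.6% higher, near the 31.6% and 23.2% of all genes. The 2 lines, with 1 array each per siRNA, are the only replicates of an siRNA difference, so a difference between their responses was not tested.

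ITGAV had the largest fitted difference of the set over both lines, although in A673 alone ITGA3 differed more (-1.15). With DKK2 siRNA its level in A673 was 65.5% of control and in SK-N-MC 55.0%, or -0.61 and -0.86 on the log2 scale. The fitted difference was -0.74 ± 0.14 (SE, n = 2 lines; 95% interval -1.05 to -0.42), unadjusted p = 0.000611 and adjusted p = 0.231 in limma, the 48th smallest p-value of 18417. Its adjusted p ranged from 0.0843 to 1.00 over the alternatives. It was the 1 gene of the set at least 1.5-fold lower in both lines, where 0.418% of all genes were. With ITM2A siRNA it stood at 82.2% and 85.9% of control. Its value with DKK2 siRNA was the lowest of its line in both lines. Of its beta partners, ITGB1 differed by -0.05 and -0.16 and ITGB5 by 0.09 and 0.23 (limma adjusted p = 0.864 and 0.768), while ITGB3, ITGB6 and ITGB8 differed by 0.00 to 0.16. Whether ITGAV differed from its partners was not tested. On the same arrays the 14 measured interferon-induced genes had a median difference of -3.23 in A673, while the SK-N-MC median was -1.17. None of the 14 passed (limma), and all 14 had an unadjusted p under 0.05. Their part in the ITGAV value was not tested.

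The other DKK2 siRNA differences were small or uneven. ITGA4 differed by -0.44 and -0.24, ITGA5 by -0.25 and -0.42, ITGA2B by 0.31 and 0.30, and PARVA by 0.40 and 0.25, all with adjusted p of 0.547 to 0.593. In A673 ITGA3 was at 44.9% of control (-1.15), while in SK-N-MC it was at 106% (0.09), and the fitted difference of -0.53 ± 0.25 rests on the A673 arrays. ZYX had opposite signs, -0.29 for A673 and 0.65 for SK-N-MC. Of the kindlins, FERMT2 differed by -0.35 and -0.18 and FERMT3 by -0.17 and -0.01. Several core components kept close to control, with 95% intervals of -0.30 to 0.29 for VCL, -0.30 to 0.31 for TLN1 and -0.34 to 0.25 for PXN.

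With ITM2A siRNA, again none of the 35 passed against control (limma), beside 0.0109% of all genes. The 4 at an unadjusted p under 0.05 (11.4%, against 6.91% of all genes) were FERMT2, ITGA7, FERMT3 and ITGA2, all with higher values. In both lines 37.1% were higher and 17.1% lower, beside 21.2% and 30.7% of all genes, and the median was 0.00 (-0.03 over all genes). FERMT2 stood at 170% of control in A673 and 178% in SK-N-MC, or 0.77 and 0.83. The fitted difference was 0.80 ± 0.13 with unadjusted p = 0.000228, the 8th smallest of all genes, and adjusted p = 0.410, which ranged from 0.163 to 1.00 over the alternatives. It was the 1 gene of the set at least 1.5-fold higher in both lines, where 0.0869% of all genes were. FERMT3 differed by 0.37 and 0.33, the laminin receptor subunit ITGA7 by 0.50 and 0.49, and ITGA2 by 0.13 and 0.66. FERMT1 differed by -0.13 and 0.38. The interferon-induced genes had medians of -0.84 and -0.32 on these arrays, and their part in the FERMT2 value was not tested. The DKK2 and ITM2A comparisons use the same control arrays.

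Set directly against each other, the DKK2 and ITM2A siRNAs also gave no call among the 35 (limma; 0.0163% of all genes passed, 3 in number), with 6 at an unadjusted p under 0.05 (17.1%, against 8.32%). FERMT2 came closest. With DKK2 siRNA its level was 46.1% of that with ITM2A siRNA in A673 and 49.9% in SK-N-MC, or -1.12 and -1.0. The fitted difference was -1.06 ± 0.13 (n = 2 lines; unadjusted p = 2.90e-05, adjusted p = 0.0957), the 5th smallest p-value of all genes. It was at least 2-fold lower in both lines, as were 0.0489% of all genes, and no other gene of the set reached even 1.5-fold in both (0.353% of all genes did). Its call depended on the fit: limma adjusted p was 0.0334 with an intensity trend, 0.0437 among genes at or above the median level, and 0.0473 with the 4 compared arrays alone. Leaving out either control array amounts to that same 4-array fit. Over all alternatives the adjusted p of FERMT2 ranged from 0.0334 to 1.00. The interferon-induced genes differed here by a median of -2.40 in A673, with -0.74 for SK-N-MC. Against control, most of this difference came with the ITM2A siRNA by value (0.77 and 0.83, beside -0.35 and -0.18 with DKK2 siRNA). FERMT3 differed by -0.54 and -0.34, ITGAV by -0.33 and -0.64, ITGA7 by -0.72 and -0.29, ITGA2B by 0.32 and 0.29, and PARVA by 0.39 and 0.54, at adjusted p of 0.425 to 0.572.

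**Figure D4:**
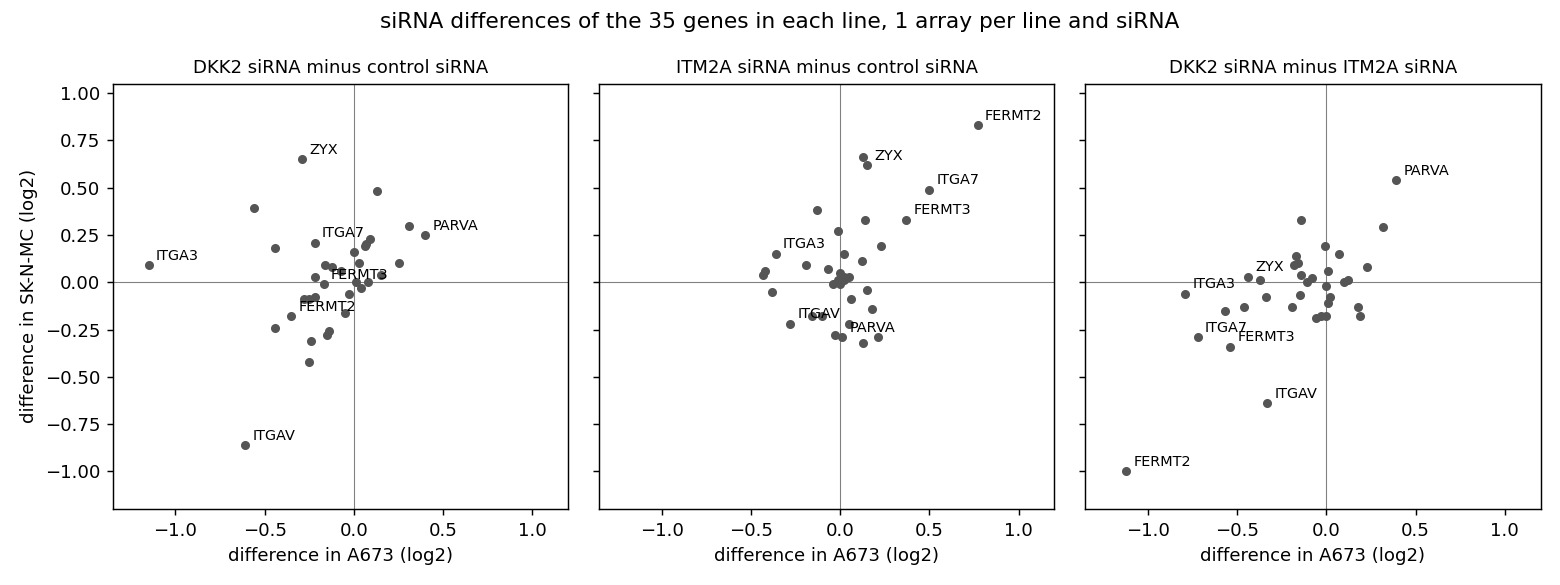
Difference between 2 siRNAs in A673 (horizontal axis, log2) and in SK-N-MC (vertical axis, log2) for each of the 35 genes, with 1 array per line and siRNA behind each value. Most points lie near 0, ITGAV lies lowest with DKK2 siRNA against control (-0.61 and -0.86), and FERMT2 lies farthest out with ITM2A siRNA against control (0.77 and 0.83) and between the 2 siRNAs (-1.12 and -1.0).

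Other proteins of focal adhesions, outside the 35, leaned the same way between the lines. Of 42 measured, 16 were higher in A673 and 3 lower (38.1% and 7.14%, beside 13.8% and 14.7% of all genes). Neither this list nor those below were split by level. Among all genes at or above the median level 22.9% were higher and 25.6% lower. CSRP1, a LIM-domain protein of actin bundles, stood at 8.83, 8.76 and 9.19 in A673 and at 3.41, 3.07 and 2.87 in SK-N-MC, a 56.1-fold difference. The caveolar coat gene CAV1 (2.57 ± 0.13, adjusted p = 3.44e-06) and the zyxin relative LPP (2.41 ± 0.16, adjusted p = 1.30e-05) followed. The parvin PARVB, the ILK partner RSU1, the PTK2 substrate BCAR1 and both alpha-actinins ACTN1 and ACTN4 were among the 16, and TNS1, LIMD1 and PDLIM7 were the 3 lower. With DKK2 siRNA 0 of the 42 passed (limma). At an unadjusted p under 0.05 there were 8 of 42, a larger share than the 8.68% of all genes. Ranked by the smaller of the 2 lines' differences, PDLIM7 (-0.59 and -0.38), PDLIM5 (-0.34 and -0.73) and LPP (-0.91 and -0.32) came first. With ITM2A siRNA 0 passed (limma), and 2 of 42 had an unadjusted p under 0.05, a smaller share than the 6.91% of all genes. FYN, PARVB and SRC came first by the same rank, at 0.15 to 0.42. Of 25 genes that inactivate integrins, move them inside the cell or accompany them in the membrane, 8 were higher in A673 and 1 lower (32% and 4%). They were led by the tetraspanin gene CD82 (2.23 ± 0.17) and by DAB2 (1.94 ± 0.22), which sorts integrins into clathrin-coated pits. With ITM2A siRNA the recycling GTPase gene ARF6 differed by -0.47 and -0.61 and the sorting nexin gene SNX17 by -0.21 and -0.84, neither past the threshold (adjusted p = 0.623 and 0.684).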

How the data were processed

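Total RNA was amplified, labelled and hybridised to 6 Affymetrix arrays. Per the submitters' processing notes, the authors used RMA in Affymetrix Expression Console. Its version and settings are not stated here. The authors' deposited values were taken as log2, read from their range of 1.02 to 13.4, since the scale is not stated. RMA evens out the arrays' distributions and compresses dim probe sets, so folds of dim genes are understated.

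Of 33297 probe sets, 19460 had 1 symbol in the platform annotation, which can be old; 1754 with several were not named. The probe set with the highest mean was kept per gene. Among the 35 genes only PXN had 2.

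R 4.3.3 and limma 3.58.1 (lmFit, eBayes) fitted siRNA and cell line to all 6 arrays, across all 18417 genes, leaving 2 residual degrees of freedom, moderated to 8.28. The labels pair arrays by line. The threshold was a Benjamini-Hochberg adjusted p of 0.05. The number of arrays limits the precision. The fit was tested on simulated data. Alternatives were the block, an intensity trend, a level filter, probe set averaging, median centring, all probe sets, 4 arrays, and each array left out.

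All 36 genes were named; other lists gave 3 genes per comparison by the smaller of the lines' differences where both had 1 sign, or by size between lines, and some list genes were named after their values were seen. Genes and lists were chosen with earlier results of these data known. One further gene list is not reported here.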

Additional observations from a re-analysis of the deposited data

How the results depend on the processing

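The replicates of an siRNA difference were the 2 cell lines, and the paired fit with the line as a block was the main one. Between the lines 17 of 35 genes passed, 12 of the 13 tested under the level filter, 15 to 17 under the other settings and 15 to 18 with any 1 array left out. The siRNA calls were fewer and less even. For DKK2 siRNA against control, 0 of the 35 passed under each setting, while the 2 calls over all genes became 0 without the line as a block, 0 with all probe sets, 0 with the 4 compared arrays and 7 with an intensity trend, and 0 to 60 with 1 array left out (in SK-N-MC, 60 without the DKK2 siRNA array and 45 without control; 0 without the DKK2 siRNA array of A673 or either ITM2A siRNA array). For ITM2A siRNA against control, 0 of the 35 passed under each setting, and the 2 calls over all genes became 0 without the block, 0 with all probe sets, and 0 to 4 with 1 array left out (4 without control siRNA in SK-N-MC, 0 without either ITM2A siRNA array). Between the siRNAs, FERMT2 gave 1 call among the 35 with the trend, the level filter or the 4 arrays, and 0 to 1 with 1 array left out. The 3 calls over all genes became 0 without the block, 0 with all probe sets, 16 with the trend, 6 with the filter and 18 with the 4 arrays, and 1 to 50 with 1 array left out (50 without DKK2 siRNA in SK-N-MC, 18 without either control array, 1 without either ITM2A siRNA array). Of the 3 siRNA differences of at least 1.5-fold in both lines, 1 was 2-fold. Fits that leave out an array have 1 residual degree of freedom, and a lone array is assumed to vary like the others. Leaving out either array of 1 siRNA gives the same fit of the line difference. For 2 siRNAs, leaving out an array of the siRNA not compared equals the 4-array fit. Such settings are not separate checks. Signal over background was not measured.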

Other observations

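Ligands of integrins also differed between the lines, in both directions. Of 41 measured matrix and cell surface ligands, 18 were higher in A673 and 8 lower (43.9% and 19.5%, beside 13.8% and 14.7% of all genes). FN1, which encodes fibronectin, the ligand of the ITGA5 and ITGB1 pair, stood at 11.72, 11.79 and 11.94 in A673 with control, DKK2 and ITM2A siRNA and at 7.48, 6.95 and 6.64 in SK-N-MC, a 27.7-fold difference (4.79 ± 0.18, limma adjusted p = 6.64e-07). TGFBI, a secreted RGD protein, was 8.88-fold higher and ICAM1, a ligand of leukocyte integrins, 7.75-fold higher. The lower ligand genes included LAMA2, COL1A2, COL6A3 and NPNT. VCAM1, the surface ligand of ITGA4, was among the 18 higher ones, whereas ITGA4 itself was lower.

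A list of SRF and YAP target genes, which also holds regulators such as SRF and YAP1 themselves, showed a similar lean. Of 16 measured SRF and YAP genes, 11 were higher in A673 and 1, SRF itself, was lower. That is 68.8% and 6.25%, beside 13.8% and 14.7% of all genes. The 11 higher genes included the regulators YAP1 and WWTR1, and CCN1 and CCN2 stand in this list and among the ligands. ACTA2, smooth muscle actin, was 18.3-fold higher (4.19 ± 0.13, limma adjusted p = 2.99e-07), and YAP1, a regulator rather than a target, 4.81-fold higher. Interferon-induced genes were higher too, 12 of 14 (85.7%, beside 13.8% of all genes). Their median line difference was 2.89 with control siRNA and 0.06 with DKK2 siRNA.

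Neither the ligands nor the SRF and YAP genes had a call with either siRNA (limma). At an unadjusted p under 0.05 with DKK2 siRNA there were 3 of 41 ligands, a smaller share than the 8.68% of all genes. The 3 of 16 SRF and YAP genes were a larger share. Ranked by the smaller of the 2 lines' differences, CCN1 led the ligands (-1.08 in A673 and -0.41 in SK-N-MC). NID2, which was higher (0.25 and 0.34), and ICAM1 (-1.55 and -0.24) followed. The SRF and YAP genes were led by ACTA2 (-0.84 and -0.62), TAGLN (-0.48 and -0.44) and CCN1. With ITM2A siRNA there were 2 of 41 ligands, a smaller share than the 6.91% of all genes. The SRF and YAP genes, at 3 of 16, were again a larger share.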
